A study of Mus musculus with 8 samples.

Results

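The sensory neuropeptide genes examined here are 10 non-opioid precursors of sensory neurons, Calca, Calcb, Tac1, Adcyap1, Gal, Sst, Npy, Vip, Cartpt and Cck, taken by symbol from the 22609 gene symbols counted in each library. To compare the sexes, RNA was sequenced from dorsal root ganglion (DRG) neurons of naïve C57BL/6J mice aged 8 to 12 weeks, 4 libraries from females in the estrous phase and 4 from males, and every mouse of both groups carried the same label. The label was WGA-488, a fluorescent wheat germ agglutinin that axon endings take up and carry back to the cell body. It was injected into both hindpaws and both thighs, and labelled cells from L3-L5 ganglia were sorted 2 days later. Each library is therefore a mixture of neurons from skin and muscle, pooled over 6 ganglia per sample, in which a smaller share of peptide-expressing neurons and less mRNA per neuron cannot be told apart. The design gives 4 mice of each sex, so the spread between samples is read as that between mice.

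Neuropeptides are made as longer precursor proteins in the cell body. Prohormone convertases and carboxypeptidases trim the precursors inside dense-core vesicles, some peptides are amidated at their end, and the vesicles travel to both ends of the sensory axon. Released in the skin they widen blood vessels and drive plasma leakage and itch. Released in the spinal cord they act over G protein-coupled receptors on dorsal horn neurons. In DRG, CGRP and substance P mark the peptidergic nociceptors, somatostatin marks a small class of itch neurons that also makes natriuretic peptide B, and galanin, NPY and VIP are scarce in intact ganglia and known for their induction after nerve injury.

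Libraries held 4.80 to 7.33 M gene reads (M, 1e6 reads), so that 3 reads, taken as the floor of detection, amount to 0.409 to 0.625 CPM (counts per 1e6 gene reads). That floor covers counting error alone, since the reads carry no molecular identifiers. All 15 pan-neuronal markers passed the expression filter, led per length by the tubulin gene Tubb3, the ubiquitin hydrolase gene Uchl1 and the neurofilament gene Nefl, and their summed level was 33692 to 43355 CPM in females and 33552 to 38504 CPM in males. Female 4 stood apart from the other females, with a chi-square of 30.1 to 44.9 per degree of freedom against them, where no other pair of 1 sex exceeded 12.1. Male 1 stood apart in glial RNA: the summed level of 20 satellite glia and Schwann cell markers was 5458 CPM there, at most 11252 CPM in any male, and 11654 to 14966 CPM in females. Of 12518 genes tested with edgeR, 11 passed an adjusted p under 0.05, and 6 of these were sex-linked.

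Calca and Calcb, neighbours on chromosome 7, encode the CGRP precursors, and part of their coding sequence is so alike that the sharing of reads has to be considered first. Calca (chr7:121774994-121779871, minus strand, mm9) has 2 annotated transcripts: exon 4 gives calcitonin, exon 5 gives alpha-CGRP. Calcb (chr7:121862157-121866879, plus strand) gives beta-CGRP from exon 4. The 157 coding bases that the CGRP exons share in alignment are printed with the 17 differing bases in capitals, from the mm9 genome at chr7:121775957-121776113 (minus) and chr7:121865489-121865645 (plus).
Calca exon 5: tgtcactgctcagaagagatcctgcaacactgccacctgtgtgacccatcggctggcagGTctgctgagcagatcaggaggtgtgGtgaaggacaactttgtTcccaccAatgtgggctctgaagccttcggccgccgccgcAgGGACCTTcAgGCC
Calcb exon 4: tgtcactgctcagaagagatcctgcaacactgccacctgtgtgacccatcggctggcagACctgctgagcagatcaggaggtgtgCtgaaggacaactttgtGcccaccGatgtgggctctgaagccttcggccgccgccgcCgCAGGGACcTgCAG
Most capitals stand at the end of the block, after the mature CGRP sequence, and the first part of the block is the same in both genes. In numbers, 140 of 157 bases (89.2%) were identical, and the longest identical run was 60 bases over the spliced transcripts, counting the base before the block. With reads of 50 bases, 11 of 1431 exonic windows of Calca (0.769%) and 11 of 913 of Calcb (1.205%) occurred in both genes, and no window of the other 8 members occurred in another member. The counts of the CGRP genes can therefore be read apart except within that stretch. The calcitonin and CGRP forms of Calca lie in 1 gene count and cannot be told apart here.

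Per length, Calca was far above every other precursor. On the scale of reads per kilobase of annotated exon per 1e6 gene reads (RPKM), its level averaged 2477 ± 444.5 (SD, n = 8), and it alone gave 68.4 to 73.8% of the reads of the 10 members in each library. Tac1, the precursor of substance P and neurokinin A, followed with an RPKM of 722.9 ± 226.4 (SD, n = 8), and Calcb with 462.5 ± 60.6 (SD, n = 8). Adcyap1, which encodes PACAP, a peptide that raises cyclic AMP in its target cells, averaged an RPKM of 101.6 ± 36.4 (SD, n = 8). Gal, the galanin precursor, averaged 52.3 ± 10.3 RPKM and Cartpt, which encodes the CART peptides, 33.6 ± 12.6 RPKM (SD, n = 8). These 6 genes held the same order in 8 of 8 libraries.

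Below them the order was less firm. Sst, the somatostatin precursor, averaged 15.4 ± 9.25 RPKM (SD, n = 8) and was under Cartpt in 7 of 8 libraries. Npy averaged 6.18 ± 6.92 RPKM (SD, n = 8), with 0 to 73 reads in a library, and was under Sst in 6 of 8. Cck, the cholecystokinin precursor, had 1 to 5 reads in every library, and its mean of 0.379 CPM lies at or under the floor. Vip had 0 reads in all 8 libraries, which over their 50651807 gene reads allows a level of up to 0.0592 CPM. With the longest transcript as the length in place of all exons, Calca averaged an RPKM of 3695 and the same number of neighbouring pairs, 6 of 9, kept their order in all libraries.

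**Figure D1:**
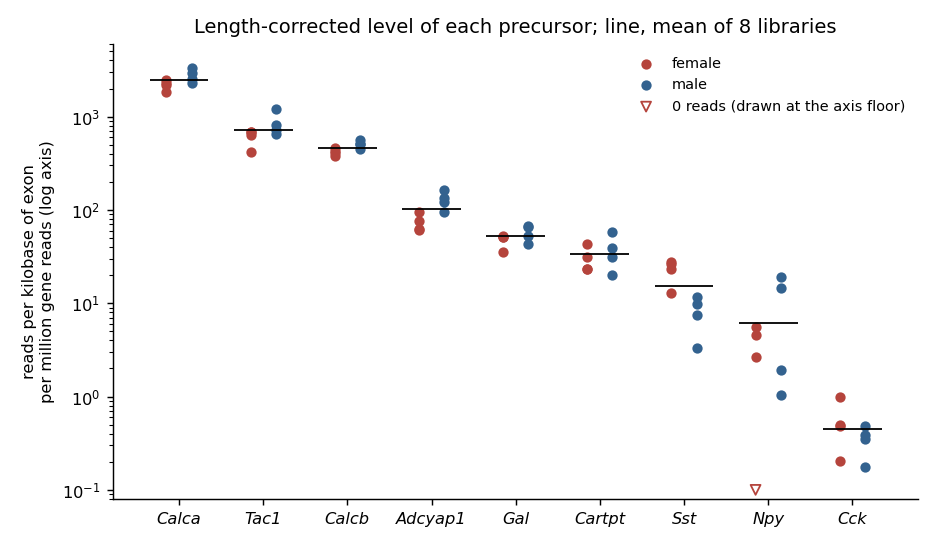
RPKM (log axis) of the 9 members with reads in each of the 8 libraries, females in red and males in blue, with the mean of the 8 as a line; Vip, at 0 reads in all libraries, is not drawn. Mean levels ran from 2477 for Calca down to 0.447 for Cck, and only Sst had all 4 females above all 4 males.

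Between the sexes, Sst was higher in females and the 4 most abundant of the 10 members were higher in males. Sst was also the only member whose sexes did not overlap in CPM, where 5.52% of all genes tested did not. Of the 10 members, 8 passed the expression filter, while Vip and Cck did not. Unadjusted edgeR p-values were under 0.05 for 5 of these 8, Sst upwards in females and Calca, Calcb, Tac1 and Adcyap1 upwards in males, where 7.11% of all genes tested passed the same threshold (4.44% with the higher level in females, 2.67% in males). No member passed after adjustment in edgeR, where 0.0879% of all genes did, nor in limma-voom. DESeq2 called Sst and Adcyap1, where it called 0.383% of all genes. The median log2 fold change, female over male, was -0.33 over the 8 members and 0.0034 over all genes, and with the glial score as a covariate it was -0.11 and -0.0074.

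**Figure D2:**
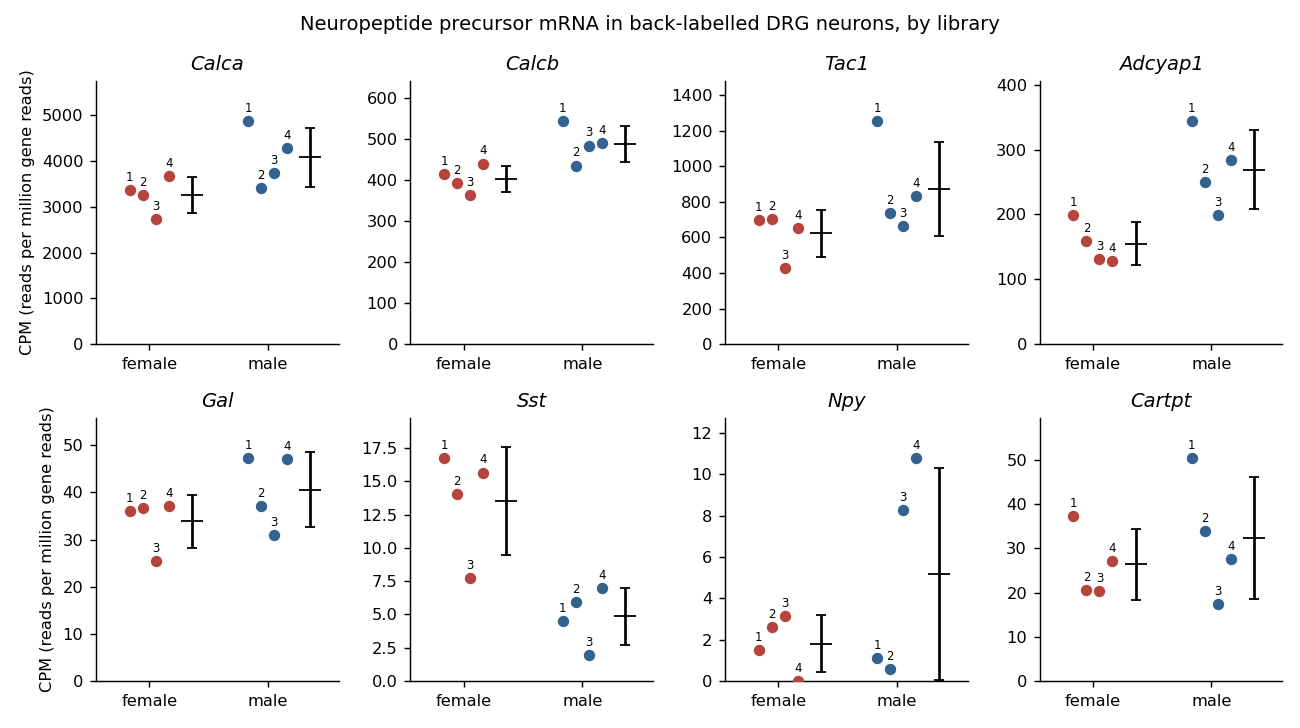
CPM of the 8 tested members in each library, labelled by library number, with the mean and SD of 4 libraries per sex as a bar; the vertical scale differs between panels and starts at 0. Male 1 is the highest library for Calca, Calcb, Tac1, Adcyap1, Gal and Cartpt, and in Sst every female lies above every male.

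Sst (chr16:23889667-23890930, minus strand, mm9) showed the widest separation. It stood at 16.8, 14.1, 7.71 and 15.7 CPM in females 1 to 4 and at 4.50, 5.94, 1.98 and 6.95 CPM in males 1 to 4, from 37 to 122 reads and 12 to 47 reads. All 4 females lay above all 4 males, as they did for 3% of all genes tested (males above all females, 2.52%), though female 3, the shallowest library, came close to the highest male. The mean was 13.6 ± 4.05 CPM in females and 4.84 ± 2.16 CPM in males (SD, n = 4). The fitted log2 fold change was 1.46 ± 0.34 (SE), a 2.75-fold difference, with an unadjusted edgeR p of 0.00142 that ranked Sst at place 43 of all genes, and an adjusted p of 0.413. With DESeq2 the adjusted p was 0.0206, and over all alternatives it ranged from 0.0206 to 0.998. The direction held, with an unadjusted p under 0.05, in all 16 alternative fits.

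Sst is made by DRG neurons that share a set of itch genes, so the rest of that set was read beside it. Natriuretic peptide B (Nppb), the transmitter that marks these neurons, stood at 15.1, 13.4, 8.54 and 10.4 CPM in females 1 to 4 and at 8.05, 12.2, 7.10 and 20.1 CPM in males 1 to 4. These values overlapped throughout, and the log2 fold change of Nppb was -0.01 ± 0.32 (SE). Of the 8 genes listed with it, among them the interleukin-31 and oncostatin M receptor genes Il31ra and Osmr, the kinase gene Jak1 and the neurotensin precursor Nts, none had an unadjusted p under 0.05 in edgeR, and DESeq2 and limma-voom called none after adjustment. Their median log2 fold change was -0.15, with the lowest value for Osmr at -0.41 ± 0.28 (SE). With 7.11% of all genes past that threshold, a count of 0 among 8 is near the background.

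Within each library, Sst reads per Nppb read came to 1.11, 1.05, 0.902 and 1.5 in females and to 0.559, 0.488, 0.279 and 0.346 in males. Every female had a higher ratio than every male, with means of 1.14 ± 0.255 and 0.418 ± 0.128 (SD, n = 4). An exact permutation test (two-sided, 70 labelings) gave p = 0.0286, the smallest it can give, and 0.1 after adjustment over the 7 ratios computed, which were chosen after the values were seen. The ratio to Calca gave the same p, with 0.0041 ± 0.000907 Sst reads per Calca read in females and 0.0012 ± 0.000576 in males (SD, n = 4).

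**Figure D3:**
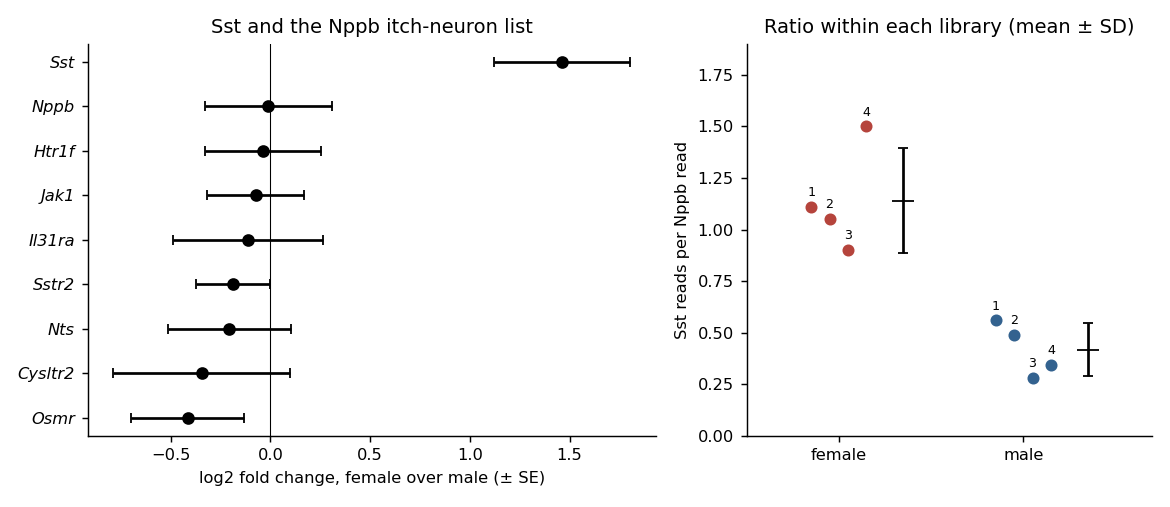
Left, log2 fold change (female over male, with SE) of Sst and of the 8 genes listed for the Nppb itch neurons; right, Sst reads per Nppb read in each library, numbered, with mean and SD of 4 libraries per sex. The fold changes of the 8 listed genes lie between -0.41 and -0.01 and that of Sst at 1.46, and the ratios are 0.902 to 1.5 in females and 0.279 to 0.559 in males.

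Adcyap1 (chr17:93598762-93604825, plus strand, mm9) was the precursor with the clearest difference in the other direction. Its level was 199.6, 159.7, 131.9 and 128.7 CPM in females 1 to 4 and 343.7, 250.7, 198.8 and 283.4 CPM in males 1 to 4. Male 3 and female 1 met at almost 1 value, and the other males lay above all females. Means were 155 ± 32.9 and 269.2 ± 60.7 CPM (SD, n = 4). The fitted log2 fold change was -0.82 ± 0.19 (SE), 1.76-fold higher in males, with an unadjusted edgeR p of 0.00135 at place 38 of all genes, and an adjusted p of 0.413. DESeq2 gave an adjusted p of 0.0335, in a range of 0.0335 to 0.998 over all alternatives. The unadjusted p stayed under 0.05 in all 16 alternative fits, with fold changes of -0.95 to -0.67 when 1 library was left out. After TMM scaling, the sexes no longer overlapped for Adcyap1 and Calcb, and the share of all genes on that scale was not counted.

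The CGRP genes differed less, by a similar amount each. Calca stood at 3373, 3250, 2730 and 3667 CPM in females 1 to 4 and at 4865, 3409, 3739 and 4288 CPM in males 1 to 4. Male 2 lay within the female range. Means were 3255 ± 391.3 and 4075 ± 639.2 CPM (SD, n = 4), and the log2 fold change was -0.35 ± 0.13 (SE), with an unadjusted edgeR p of 0.0256 and an adjusted p of 0.656. Calcb stood at 413.4, 391.5, 363.1 and 439.7 CPM in females and at 542.7, 434.8, 483.5 and 490.6 CPM in males. Again only male 2 lay within the female range. The log2 fold change of Calcb was -0.30 ± 0.11 (SE), with an unadjusted edgeR p of 0.0173 and an adjusted p of 0.637. The ratio of Calcb to Calca reads was nearly level, 0.124 ± 0.00613 in females and 0.121 ± 0.00901 in males (SD, n = 4), with an exact permutation p of 0.543 and 0.733 after adjustment over the 7 ratios.

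Tac1 (chr6:7505071-7512973, plus strand, mm9) followed the CGRP genes with more spread. It stood at 701, 704.5, 429.4 and 655.8 CPM in females 1 to 4 and at 1254, 737.5, 666.4 and 831.2 CPM in males 1 to 4. Male 1 alone was above all other libraries by a wide margin, and male 3 lay among the females. The log2 fold change was -0.51 ± 0.21 (SE), with an unadjusted edgeR p of 0.0380 and an adjusted p of 0.696. The Tac1 to Calca ratio was 0.19 ± 0.0273 in females and 0.212 ± 0.0345 in males (SD, n = 4), with an exact permutation p of 0.4 and 0.7 after adjustment. For Adcyap1 to Calca it was 0.0479 ± 0.00988 and 0.0659 ± 0.009 (SD, n = 4), with an exact permutation p of 0.0571 and 0.133 after adjustment.

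How much of these male-higher values rested on male 1 was read from the fits without it. Without male 1 the log2 fold change was -0.24 for Calca (unadjusted edgeR p of 0.0947), -0.24 for Calcb (p of 0.0662) and -0.27 for Tac1 (p of 0.153), and 2 members, Adcyap1 and Sst, kept an unadjusted p under 0.05. Leaving out female 3 took Calca to a p of 0.0734 and Tac1 to 0.104, and leaving out male 4 took them to 0.0701 and 0.0575. With male 1 and female 4 both left out, Calca (0.0104), Calcb (0.00319), Adcyap1 (0.00312) and Sst (0.00604) had an unadjusted p under 0.05, and Tac1 had 0.0937. Glial RNA moved with sex and with male 1, and a fit with the glial score cannot tell these apart. In that fit the adjusted p was 0.998 for every member tested. With the glial score as a covariate, fold changes were -0.14 for Calca (p of 0.334), -0.18 for Calcb (p of 0.172) and -0.08 for Tac1 (p of 0.657), whereas those of Adcyap1 (-0.50, p of 0.0225) and Sst (1.62, p of 0.00538) kept their side of the threshold and Npy (-2.46, p of 0.0406) passed it. Cartpt also rested on male 1: without that library its log2 fold change was -0.01, and without female 1 it was -0.53, neither with a p under 0.05.

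**Figure D4:**
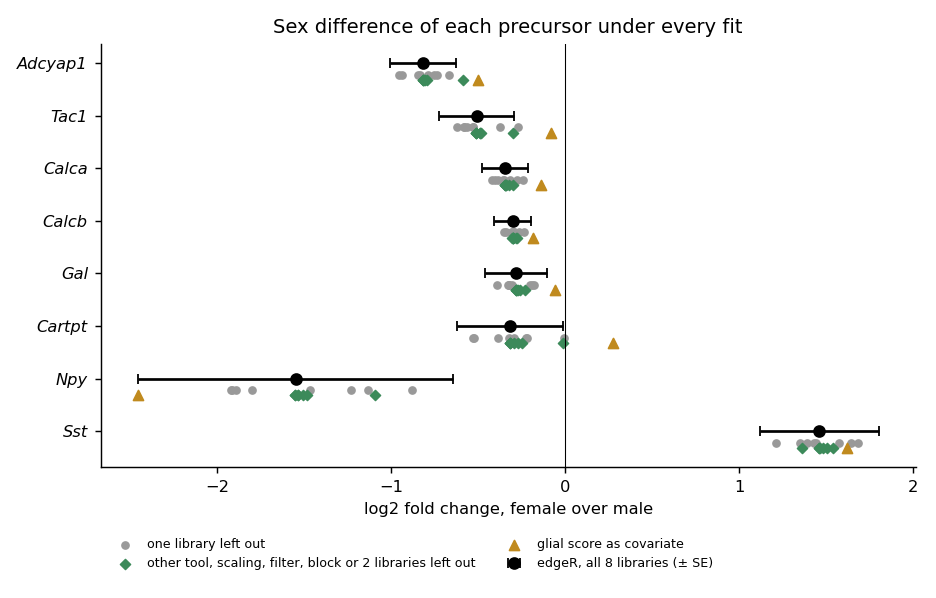
Log2 fold change, female over male, of each tested member: black, edgeR on all 8 libraries with SE; grey, 1 library left out; green, another tool, scaling, filter or the replicate block, or male 1 and female 4 left out; gold, the glial score as covariate. Adcyap1 lies between -0.95 and -0.50 and Sst between 1.21 and 1.68 in every fit, and Cartpt crosses to 0.27 with the glial score.

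Gal (chr19:3409919-3414472, minus strand, mm9) stood at 36.2, 36.8, 25.4 and 37.1 CPM in females 1 to 4 and at 47.3, 37.1, 30.9 and 47.0 CPM in males 1 to 4. The sexes overlapped: male 2 was level with female 4, and male 3 lay below 3 of the females. The log2 fold change was -0.28 ± 0.18 (SE), with an unadjusted edgeR p of 0.142 and an adjusted p of 0.775. Without female 3 the fold change was -0.18, and with the glial score as a covariate it was -0.06. Cartpt (chr13:100668439-100670638, minus strand, mm9) stood at 37.4, 20.5, 20.4 and 27.1 CPM in females and at 50.5, 34.0, 17.3 and 27.7 CPM in males. Its lowest library was a male and its highest a male, and the log2 fold change was -0.32 ± 0.31 (SE), with an unadjusted edgeR p of 0.322 and an adjusted p of 0.823. The ratios of Gal and Cartpt to Calca overlapped between the sexes, with exact permutation p-values of 0.629 and 0.771.

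Npy (chr6:49772709-49779506, plus strand, mm9), a vasoconstrictor peptide of sympathetic neurons that sensory neurons make after injury, was uneven. Its 11, 15, 15 and 0 reads in females 1 to 4 and 8, 4, 50 and 73 reads in males 1 to 4 correspond to 1.51, 2.60, 3.12 and 0 CPM and to 1.09, 0.594, 8.26 and 10.8 CPM. Males 3 and 4 alone stood clear of the rest, and the other males lay within the female range. The log2 fold change was -1.55 ± 0.91 (SE), with an unadjusted edgeR p of 0.117 and an adjusted p of 0.752. Without male 4 the fold change was -0.88, without male 2 it was -1.92 at a p of 0.0421, and with the glial score as a covariate it was -2.46 at a p of 0.0406. Of 11 sympathetic neuron markers, the noradrenaline transporter gene Slc6a2 and the transcription factor genes Hand1, Hand2 and Gata3 had 0 reads in all 8 libraries, and Dbh, the enzyme of noradrenaline synthesis, had at most 2 reads. The summed level of the list, 21.2 to 34.8 CPM in females and 13 to 28.1 CPM in males, came mainly from Chrna3 and Slc18a2. Vip (chr10:4698927-4707323, minus strand) and Cck (chr9:121398943-121404807, minus strand) were too low for a comparison.

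Many neuropeptide genes carry a cyclic AMP response element near their start, the palindrome TGACGTCA or its short form TGACG, which CREB proteins bind. Because the precursors differ in direction here, the 250 bases before the start of each gene were searched on both strands, in RefSeq promoters of GRCm38.p6, a later build than the counts. The table held 9 of the 10 members, all but Calcb. The last 120 bases before the start are printed for the 4 of them with an unadjusted p under 0.05, with either form in capitals.
Sst, chr16:23890845-23890964 (minus): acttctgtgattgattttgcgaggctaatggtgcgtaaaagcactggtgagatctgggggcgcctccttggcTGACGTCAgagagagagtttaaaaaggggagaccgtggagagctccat
Adcyap1, chr17:93198897-93199016 (plus): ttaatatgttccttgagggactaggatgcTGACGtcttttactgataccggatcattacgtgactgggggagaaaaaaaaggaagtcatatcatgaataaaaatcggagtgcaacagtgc
Tac1, chr6:7554941-7555060 (plus): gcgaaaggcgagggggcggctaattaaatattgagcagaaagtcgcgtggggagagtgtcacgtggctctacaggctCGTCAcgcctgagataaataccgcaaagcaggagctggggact
Calca, chr7:114636358-114636477 (minus): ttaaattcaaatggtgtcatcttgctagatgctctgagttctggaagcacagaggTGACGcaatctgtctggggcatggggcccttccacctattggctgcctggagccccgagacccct
The full palindrome was found in Sst, beginning 48 bases before the start, and in Cartpt, 112 bases before it, and in 1.77% of 27025 genes. The short form, which any palindrome also contains, was found in 7 of the 9, among them Calca at 65, Tac1 at 43 and 197 and Adcyap1 at 91 bases before the start printed, in Vip and Cck too, and in 19.79% of all genes. Adcyap1 has a second start in the table, before which the match lay at 242 bases and none in the last 120. Gal and Npy held neither. Both Sst, higher in females, and Adcyap1, Tac1 and Calca, higher in males, thus held the letters TGACG. A match describes the letters only.

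Receptors for these peptides were present in part. Of 27 receptor genes, 12 passed the filter, of which 2 were higher in females and 1 was lower at an unadjusted edgeR p under 0.05 (4.44% and 2.67% of all genes), and their median log2 fold change was -0.13. Per length the highest were Crcp, a component of CGRP receptor signalling, with a mean RPKM of 48.8, and the NPY receptor genes Npy1r with 12.8 and Npy2r with 9.68. Ramp1, which pairs with Calcrl to form the CGRP receptor, had 0 to 3 reads, whereas Calcrl had 4 to 90 reads. Calcr and the VIP receptor gene Vipr1 had none.

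Among the receptor genes, Ramp2, which turns Calcrl into an adrenomedullin receptor, had the smallest p. It averaged 15.9 ± 4.22 CPM in females and 7.48 ± 2.46 CPM in males (SD, n = 4). Every female lay above every male, as for 3% of all genes tested. The log2 fold change was 1.07 ± 0.27 (SE), with an unadjusted edgeR p of 0.00242. Adcyap1r1, the PACAP receptor gene, was higher in females at a low level, 3.14 ± 0.702 against 1.80 ± 0.486 CPM (SD, n = 4), opposite to its ligand, with a log2 fold change of 0.79 ± 0.3 (SE). Sstr4, a somatostatin receptor gene, was lower in females, 1.81 ± 0.807 against 3.37 ± 0.395 CPM (SD, n = 4), opposite to Sst, with a log2 fold change of -0.90 ± 0.34 (SE). Both had a p near 0.02 (0.0241 and 0.0229, edgeR, unadjusted) and an adjusted p of 0.651.

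Among the genes that process and store the precursors, 5 were higher in males and 0 in females at the unadjusted threshold, which 2.67% and 4.44% of all genes passed in those directions. Of 16 processing genes 13 passed the filter, and 2 were higher in males at an unadjusted edgeR p under 0.05: Pam, which amidates CGRP and substance P, at a log2 fold change of -0.38 ± 0.14 (SE; p of 0.0187), and the carboxypeptidase gene Cpd at -0.64 ± 0.27 (SE; p of 0.0362). The most abundant per length, the protease gene Ctsl, the carboxypeptidase gene Cpe and the convertase inhibitor precursor Pcsk1n, averaged an RPKM of 785.5, 456.5 and 450.1 and had p-values of 0.0591, 0.203 and 0.341. The median over the list was 0.08 on the log2 scale.

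Of 24 dense-core vesicle genes 22 passed, with 3 higher in males and 0 higher in females at an unadjusted p under 0.05, and a median log2 fold change of 0.0027. Syt4, a synaptotagmin of these vesicles, averaged 561.6 ± 70.9 CPM in females and 739.1 ± 78.5 CPM in males (SD, n = 4). Its male values all lay above every female, as for 2.52% of all genes tested. On the log2 scale Syt4 differed by -0.42 ± 0.12 (SE), at an unadjusted edgeR p of 0.00625. Those of the Rab genes Rab27a and Rab3c were -0.61 ± 0.22 and -0.24 ± 0.1 (SE). The secretogranin genes Scg3 and Scg2 and the vesicle gene Rab3a, the most abundant per length, had p-values of 0.251, 0.104 and 0.122.

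Other peptide precursors were few. Of 41 listed, 40 were found in the files by symbol, 4 passed the filter, and 13 had 0 reads in every library, among them the neurokinin B precursor Tac2, oxytocin (Oxt) and endothelin 1 (Edn1). The neuromedin B precursor Nmb led with a mean RPKM of 295, between Calcb and Adcyap1, and 229.2 ± 31.1 CPM in females against 238.1 ± 10.3 CPM in males (SD, n = 4). Nppb followed with an RPKM of 15.2, and then Nts with 5.59. None of the 4 had an unadjusted p under 0.05. In these 4 pathway lists, neither edgeR, DESeq2 nor limma-voom called a gene at an adjusted p under 0.05.

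Since CGRP, substance P and PACAP come from peptidergic nociceptors, markers of the neuron classes were set beside them. All 12 peptidergic nociceptor markers passed, with 1, the potassium channel gene Kcnv1, higher in males at an unadjusted edgeR p under 0.05 (log2 fold change -0.49 ± 0.21, SE), where 2.67% of all genes were, and a median of -0.28. The sodium channel genes Scn10a and Scn11a, among the most abundant, had log2 fold changes of -0.17 and -0.34. Of 16 myelinated neuron markers, all of which passed, 4 were higher in females at an unadjusted p under 0.05, where 4.44% of all genes were, led by the heavy neurofilament gene Nefh at 1.13 ± 0.33 (SE), and the median was 0.46. The summed level of the myelinated list was 1945 to 3292 CPM in females and 1125 to 1958 CPM in males, with male 1 the lowest.

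Markers of non-neuronal cells were read in the same way, and those past the unadjusted threshold, 12 in all, were higher in females, where 4.44% of all genes passed in that direction. Of the 20 glial markers 17 passed, 5 with an unadjusted p under 0.05, all higher in females, with a median of 0.35. The most abundant were Apoe, Pmp22 and Fabp7, with log2 fold changes of 0.60, -0.10 and 0.25. The Schwann and satellite markers Mbp and Fabp7 were present in every library, whereas Mag, Pmp2 and Foxd3 of the same list had 0 reads in at least 1. Of 12 fibroblast and matrix markers 7 passed and 4 were higher in females, a median of 0.71, with summed levels of 107.3 to 159.7 CPM against 46.1 to 91.2 CPM. Of 13 macrophage markers 4 passed and 3 were higher in females (H2-Ab1, Cd74 and Lyz2), a median of 1.54, with overlapping sums of 10.9 to 33.1 and 5.59 to 12.7 CPM, and the fourth, C1qb, stood at -0.14. The macrophage median covers only markers that passed a filter that a gene of low level can pass through its higher sex alone. Among the macrophage markers that did not pass, Aif1 and Mrc1 had higher means in males and the rest in females. Of 11 endothelial and blood markers 1, Pecam1, passed, at -0.01. edgeR and limma-voom called no gene of these lists after adjustment, whereas DESeq2 called Sox10 and Dcn. The part of cell composition in the lower female values of Calca, Calcb and Tac1 was not tested. The fit with the glial score cannot tell glial RNA from sex or from male 1. That score was 5.38 to 5.59 in females and 4.59 to 5.43 in males, lowest in male 1.

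**Figure D5:**
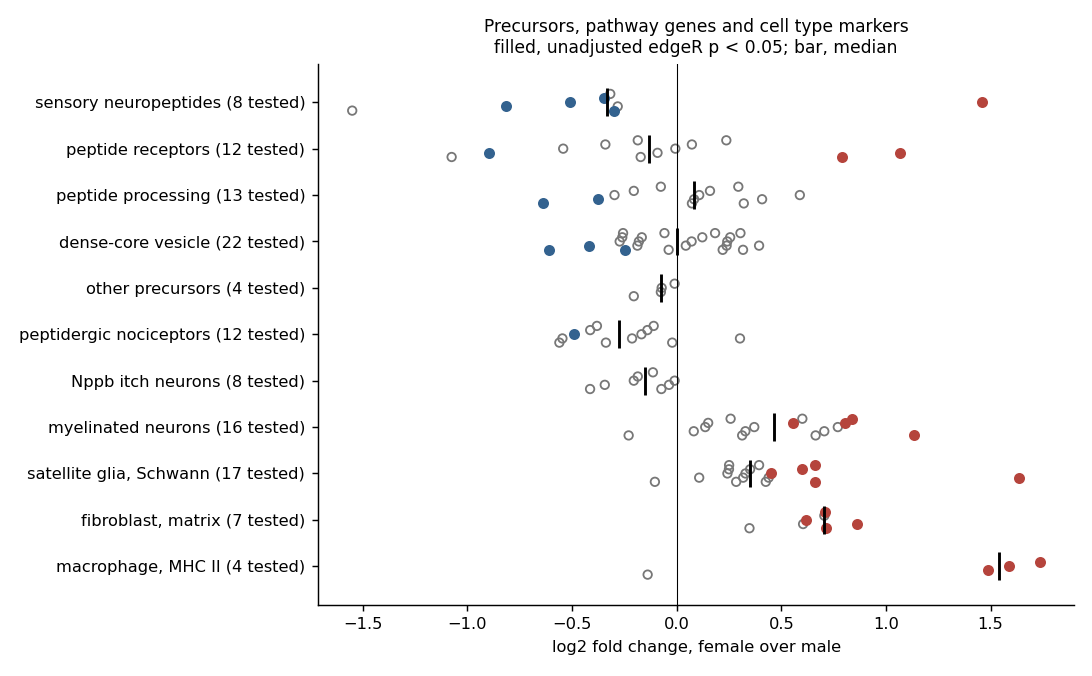
Log2 fold change, female over male, of each tested gene in the member group and 10 lists; filled points have an unadjusted edgeR p under 0.05 (red higher in females, blue higher in males), and the black bar is the median. The medians run from -0.33 in the neuropeptide members to 1.54 in the 4 macrophage markers that passed the filter, and the 8 members lie between -1.55 and 1.46.

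Among 9074 other genes with a mean of at least 10 CPM, those whose profile over the 8 libraries was nearest to each member were found by the root mean square difference of centred log2(CPM + 1). Nearest to Calca was the itch receptor gene Mrgpra3, at 0.0613, and then Ctsl, at 0.0868, where Calca itself varied by 0.237. Nearest to Calcb were Cycs and Ifi35, to Tac1 Lgals3 and Gpx3, to Adcyap1 Sbno2 and 2010011I20Rik, and to Gal Eif4e3 and Mrgpra3. For Sst no profile came near: the closest, Ramp2 and Ccz1, differed by 0.529, where Sst itself varied by 0.83. The same held for Npy, with Chrna7 and F2r at 0.772 and 0.78 of 1.14. Sst and Npy averaged 9.20 and 3.50 CPM, below the 10 CPM asked of the compared genes. Counting error at these levels was not separated from their distances. Cartpt was nearest to the galanin receptor gene Galr1, at 0.214, and to 1110034B05Rik. These are descriptions over 8 libraries, in which all genes of a library share its depth and cell composition.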

How the data were processed

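Sorted WGA-488-labelled DRG neurons were sequenced as oligo-dT SMART-seq2 libraries with single reads of 50 bp. The authors aligned reads to mm9 with TopHat2 and counted them per gene with HTSeq, and the deposited values are raw counts without normalization. Tool versions, annotation and the strand option are not given in the sources used here. CPM divides by gene reads, and RPKM by the union exon length of GENCODE M1 (mm9). Of the uniquely aligned reads, 39.4 to 42.1% fell in genes. For the sex comparison, edgeR 4.0.16 in R was used (version 4.3.3; quasi-likelihood test, TMM, filterByExpr, Benjamini-Hochberg over all 12518 genes tested), which was tested on simulated data, with DESeq2 1.42.0, limma-voom 3.58.1, other scalings, no filter, a replicate block, the glial score (mean log2(CPM + 1) of glial markers) and each library left out as alternatives. Leaving out male 1 and female 4 together, and the 7 ratios, were chosen after seeing the data. Members and lists were chosen with earlier results of these data known. Named genes were all members, in each pathway list the 3 highest per length and those with an unadjusted p under 0.05, in each marker list the 3 highest in CPM, and the 2 nearest profiles; others, such as Ramp1, Calcrl, Mbp and the genes at 0, were named after their values were seen. Some genes of the marker lists are not reported here by name. SciPy 1.17.1, pandas 2.3.3 and matplotlib 3.10.9 were used. Ratios were compared with two-sided exact permutation tests.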

Additional observations from a re-analysis of the deposited data

Results flagged for a closer look

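Gal in females was set apart by 1 library: female 3 stood at 25.4 CPM, while the other females stood at 36.2 to 37.1 CPM, so that the gap to the nearest library was 0.923 of the whole female range. Of the 18 groups of 4 libraries examined for the members, this was the 1 with such a gap, and chance gives about 0.9. Female 3 was also the female with the lowest level of Calca, Calcb, Tac1, Sst and Cartpt, and the shallowest library of the series. Without it the log2 fold change of Gal, female over male, was -0.18 in place of -0.28.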

How the results depend on the processing

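Each member's fold change was refitted under 16 alternatives. Of the 128 refits, 125 kept their direction and their side of an adjusted p of 0.05, 2 passed it (Sst and Adcyap1 with DESeq2) and 1 reversed, Cartpt at 0.27 with the glial score as a covariate; the cause was not tested. The count of all genes at an adjusted p under 0.05, 11, was 48 with DESeq2, 6 with the replicate block, 6 with the glial score, and 7 to 84 with 1 library left out, the highest without female 1 and the lowest without male 4. The count of members with an unadjusted p under 0.05, 5, was 3 with the glial score (Adcyap1, Sst and Npy) and 2 to 6 with 1 library left out, lowest without male 1. The count of members whose sexes do not overlap, 1, was 3 on TMM-scaled CPM, 2 with DESeq2 size factors, 3 with male 1 and female 4 both left out, and 1 to 4 with 1 library left out, the highest without male 3. Shares of all genes beside both member counts, 7.11% and 5.52%, were taken in the main setting only. With libraries left out, fewer values have to separate, so those non-overlap counts cannot be set against the 1 of all 8 libraries. Same-numbered libraries showed no clear pairing: their deviations correlated at 0.103, -0.117, 0.151 and 0.0107 for numbers 1 to 4. Among the males, the same-numbered one ranked 1, 4, 2 and 1 in correlation with females 1 to 4. The replicate block left 5 members with an unadjusted p under 0.05. With it the SE was smaller for Sst, Adcyap1, Tac1, Cartpt, Gal and Calca, and larger for Calcb and Npy. Depth limits Npy, Cck and Vip, whose reads in a library did not exceed 73, 5 and 0.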

Other observations

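Genes of the response to nerve injury were read because galanin, NPY and VIP are known for it. Of 18 listed injury genes 14 passed the filter, none was higher in females and 3 were higher in males at an unadjusted edgeR p under 0.05, where 2.67% of all genes were, with a median log2 fold change of -0.05. The endopeptidase gene Ecel1, with 5 to 49 reads in a library, averaged 1.63 ± 0.59 CPM in females and 4.38 ± 1.68 CPM in males (SD, n = 4). Every male lay above every female, as for 2.52% of all genes tested (log2 fold change -1.46 ± 0.37, SE). The same separation was seen for Sox11, a transcription factor gene of regrowing axons, at 13.7 ± 1.35 and 19.2 ± 4.39 CPM (SD, n = 4). The calcium channel gene Cacna2d1 overlapped, at -0.50 ± 0.22 (SE). Atf3, the usual marker of injured neurons, overlapped between the sexes at a log2 fold change of 0.42 ± 0.54 (SE). Of 11 immediate early genes 9 passed and none had an unadjusted p under 0.05, with a median of 0.30 and Fos at 0.30 ± 0.48 (SE). DESeq2 and limma-voom called none of either list after adjustment.

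The other neuron classes were read in the same way, and the classes were not tested against each other. Of 14 non-peptidergic nociceptor markers 13 passed, 2 of them, Mrgprb5 (0.71 ± 0.2, SE) and Otoa (0.43 ± 0.19, SE), higher in females at an unadjusted edgeR p under 0.05, where 4.44% of all genes were, with a median of -0.10; Mrgprd, P2rx3 and Gfra2, the most abundant, had p-values of 0.468, 0.0741 and 0.231. All 6 markers of C-fibre low-threshold mechanoreceptors passed, none with an unadjusted p under 0.05, and the tyrosine hydroxylase gene Th had a log2 fold change of 0.07 ± 0.29 (SE). The pan-neuronal list had a median of -0.02 and no gene with an unadjusted p under 0.05. DESeq2 and limma-voom called no gene of these lists after adjustment.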
